A study of Mus musculus with 72 samples.

Results

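Total RNA of the hippocampus of mice at postnatal day (P) 15 was compared with that of mice at P30, with both genotypes of the study in one fit. The arrays were chosen by their labels and by tissue identity, and 11 of the 72 arrays of the series were used, 5 at P15 and 6 at P30, 1 array per mouse. Ts1Cje mice carry a partial trisomy of mouse chromosome 16 (MMU16), a segment from *Sod1* to *Znf295* translocated onto MMU12, in every cell, and the controls were disomic C57BL/6 littermates (Wildtype in the titles), with Ts1Cje fathers and C57BL/6 mothers for both. The P15 group held 2 disomic and 3 Ts1Cje mice and the P30 group held 3 of each, all were labelled female, and none was treated. The labels do not give the litter of each mouse.

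The hippocampus is laid out before birth, but its dentate gyrus goes on making granule neurons after birth, and between the second and the fifth week oligodendrocyte precursors exit the cell cycle and wrap axons in myelin, interneurons take on their adult firing properties and the matrix around neurons is remodelled. Doublecortin and its partners mark neurons that are still migrating and extending axons, while the proteins of compact myelin, the axonal potassium channels and parvalbumin mark the mature state. Whole tissue was measured, and a lower value may come from fewer cells of a type or from less RNA in each of them, which cannot be told apart here.

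The array labelled disomic P15 hippocampus replicate 3 was left out because its profile was that of cerebellum. On an axis from 0 (other hippocampus arrays) to 1 (cerebellum arrays) it lay at 0.99, its 17 markers of hippocampal fields had a mean of 4.59 (log2) against 7.53 to 8.10 on the arrays used, and *Gabra6*, a receptor subunit of cerebellar granule neurons, stood at 12.04. The array labelled disomic P15 cerebellum replicate 3 was in turn the closest of all arrays to disomic P15 hippocampus replicate 2 and Ts1Cje P15 hippocampus replicate 3 (r of 0.995 and 0.992 over probe sets). Whether the 2 labels were exchanged was not tested, no label was changed and this array was not used as hippocampus. The genes of the triplicated segment followed the genotype labels, with array means of 7.72 to 7.85 in Ts1Cje and of 7.11 to 7.19 in disomic mice. The sex label was not borne out, since the Y-linked *Eif2s3y* was between 7.90 and 8.60 and *Xist* between 2.03 and 2.55 on all 11 arrays. *Ttr*, the transthyretin of choroid plexus, ranged from 4.33 to 13.7, and the mean of 11 choroid plexus markers was 4.42 on disomic P15 replicate 2, 4.89 on disomic P30 replicate 3 and 4.88 on Ts1Cje P30 replicate 2, against 2.73 to 3.81 on the other 8 arrays. Ts1Cje P30 replicate 3 had more of a cerebellar marker, with *Gabra6* at 5.12 where the other arrays reached 2.48.

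Expression is given as the log2 gcRMA value, in which 1 unit is a doubling. Each change is the limma estimate of P30 minus P15 adjusted for genotype, with its standard error (SE), and a gene was called, and is said to have risen or fallen, where the moderated t reached 4 in either direction and the p, adjusted by Benjamini-Hochberg for all 45101 probe sets, did not exceed 0.05. Of 18194 genes, each read from its brightest probe set, 474 rose (2.61%) and 553 fell (3.04%), and the median change of all genes was -0.01. In all, 1027 genes were called (5.64%). The age groups did not overlap for 1097 genes (6.03%), 486 of them higher (2.67%) and 611 lower (3.36%) at P30. Without the 3 arrays that held the most choroid plexus RNA, 4 mice against 4, 80 of the 18194 genes rose and 136 fell. List counts from this smaller fit, given below, are to be read against these totals and not against the shares of all 11 arrays. Whether calls were lost through fewer arrays or through choroid plexus RNA was not tested. With all 11 arrays, none of 13 cerebellar, 12 thalamic, striatal and hypothalamic, 11 choroid plexus and 4 blood markers was called between the ages, and *Rspo1* of 9 cortical markers fell and *Ptgds* of 9 meningeal markers rose. The 3 arrays were picked by their high *Ttr*, so that its change among the remaining arrays is shaped by this choice and is no test of an age difference. Without them, *Ttr* was at 8.52 to 12.6 at P15 and at 4.33 to 8.55 at P30, a change of -4.05. The other 10 choroid plexus markers were not called.

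Of the 12 rises named for their size, 6 belonged to the list of myelin and mature oligodendrocyte genes. *Mal*, a proteolipid of compact myelin, was at 8.95 and 8.67 in the disomic mice and 8.92, 7.98 and 9.42 in the Ts1Cje mice at P15, and at 11.09 to 11.93 with a median of 11.26 in the 6 mice at P30. All P30 values lay above all P15 values, and *Mal* rose by 2.63 ± 0.23 (SE, adjusted p = 9.27e-05), a 6.20-fold increase. *Ppp1r14a*, an inhibitor of myosin phosphatase, *Ermn*, the ermin of the outer myelin loops, *Apod*, the lipid carrier apolipoprotein D, and *Opalin*, a membrane glycoprotein of oligodendrocytes, rose by 2.63, 2.62, 2.38 and 2.14. *Plekhb1*, *Tmem88b*, *Evi2a*, *Prr18* and *Ndrg1* rose by 2.14, 2.27, 2.15, 1.90 and 1.86, all 5 probe sets of *Ndrg1* rose, and the transcript *2900052N01Rik* rose by 2.31. The remaining gene was *C1ql2*, known from the granule neurons and mossy fibres of the dentate gyrus.

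The 12 falls named for their size came from several cell types. *Col3a1*, a fibrillar collagen, was at 6.47 and 7.24 in the disomic mice and 7.29, 7.75 and 7.62 in the Ts1Cje mice at P15 and at 4.31 to 4.96 with a median of 4.64 at P30, and it fell by 2.57 ± 0.18 (SE, adjusted p = 3.78e-05). *Cxadr*, an adhesion protein of the junctions of young neurons and also the coxsackievirus receptor, fell by 2.53 ± 0.27 (adjusted p = 3.54e-04). *Dpysl3*, a cytosolic protein of growth cones, *Tet1*, an enzyme that oxidises methylated cytosine, *Cd24a*, a surface protein of neuroblasts, and *Dcx*, the microtubule protein doublecortin, had log2 changes of -2.28, -2.20, -2.0 and -1.95. The kinesin *Kif21b*, the microtubule-binding *Nav3*, the link protein *Hapln1*, the copper transporter *Slc31a1* and the sodium pump subunit *Fxyd7* had changes of -1.76, -1.63, -1.67, -1.62 and -1.82, and the transcript *9630013A20Rik* had one of -1.93.

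**Figure D1:**
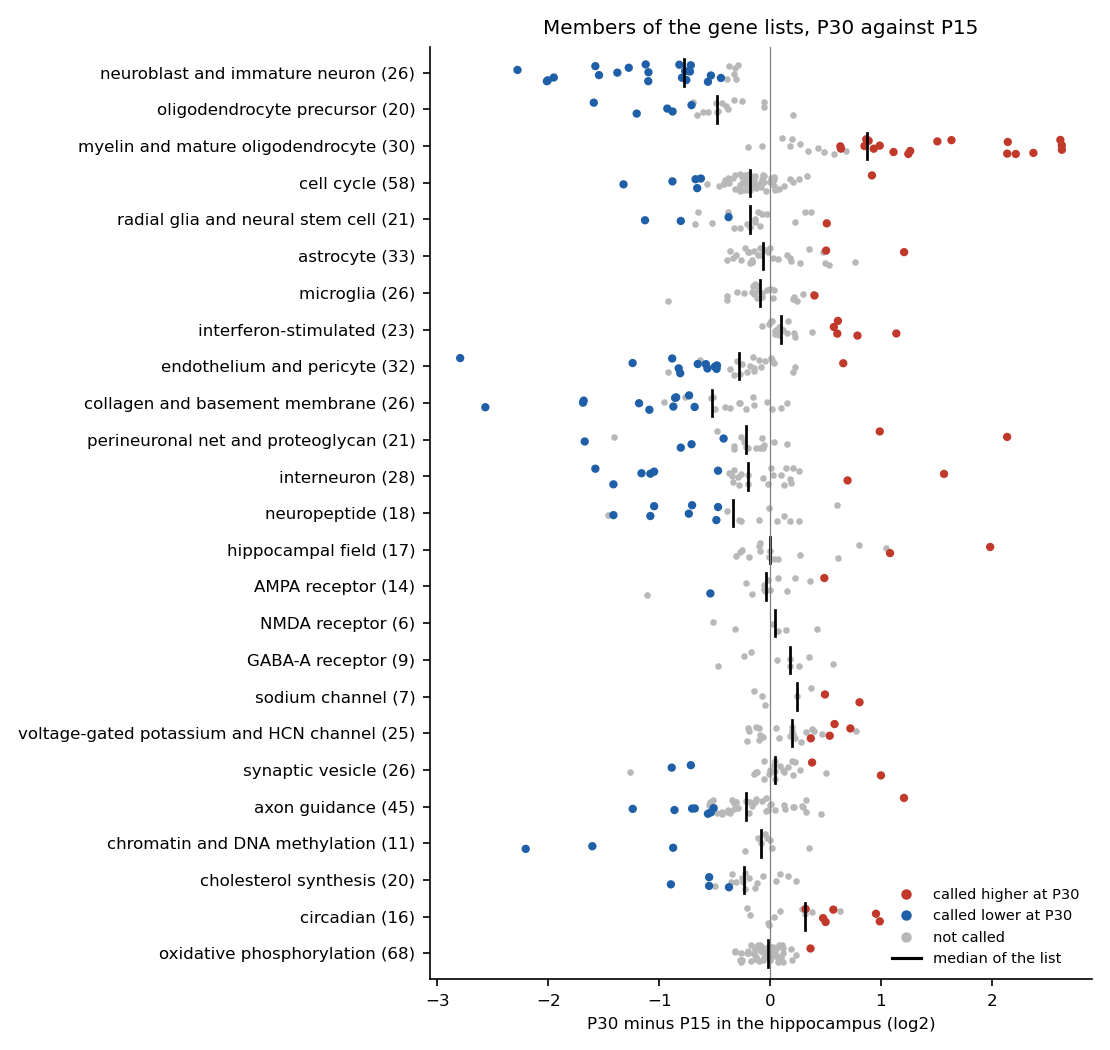
Log2 change from P15 to P30 in the hippocampus (x axis) of every measured gene of the lists named on the y axis, 1 point per gene, with called genes coloured and the median of each list as a bar. In the myelin list, which includes *Trh*, 19 of 30 genes were called higher and none lower. In the neuroblast and immature neuron list 20 of 26 were called lower and none higher.

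Oligodendrocytes come from precursors that carry the platelet-derived growth factor receptor, pass through a short premyelinating stage and then build myelin. Of 30 measured genes on the list of myelin and mature oligodendrocytes, 19 rose (63.3%, against 2.61% of all genes), none fell and the median change was 0.88. Among the 30 is *Trh*, a neuropeptide gene matched by a synonym in place of *Trf*, which was not called (0.18, adjusted p = 0.711). It is part of every count, mean and median of this list. The mean of the list was 6.85 to 7.34 on the P15 arrays and 7.80 to 8.53 on the P30 arrays, and 10 of the 30 were called without the 3 arrays rich in choroid plexus RNA, with a median of 0.83. *Aspa*, the enzyme that splits N-acetylaspartate, was at 4.51 to 5.02 at P15 and at 6.41 to 7.37 at P30, with a rise of 2.22 ± 0.16 (adjusted p = 3.91e-05). *Mog*, a surface protein of the outermost lamella, was at 8.88 and 8.20 in the disomic mice and 8.99, 7.84 and 9.30 in the Ts1Cje mice at P15 and at 9.63 to 10.58 with a median of 10.07 at P30. The groups of *Mog* did not overlap, and the rise was 1.51 ± 0.24 (adjusted p = 0.00458). *Mobp*, a basic protein of compact myelin, *Gjb1*, a gap junction subunit, *Fa2h*, which hydroxylates myelin fatty acids, and *Cldn11*, which seals the lamellae, rose by 1.64, 1.25, 1.11 and 0.93. *Gjb1* was dim, at 2.64 to 2.86 at P15, below the arrays' median of about 3.24, so that its starting level was not shown to be above background.

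Other myelin genes had smaller differences. *Mbp*, the basic protein that compacts myelin, was already at 13.60 ± 0.12 (SD, n = 5) at P15 and stood at 13.80 ± 0.07 (SD, n = 6) at P30, and its change of 0.20 ± 0.08 was not called (adjusted p = 0.234), although 3 of its 8 probe sets were. *Cnp*, a phosphodiesterase of uncompacted myelin, *Mag*, the adhesion protein next to the axon, and *Ugt8a*, which makes galactocerebroside, had changes of 0.27, 0.48 and 0.34, none called. For all 3, the P15 and P30 arrays overlapped.

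Of 20 genes of oligodendrocyte precursors and the premyelinating stage, 5 fell (25%, against 3.04% of all genes), none rose, the median was -0.48, and 3 were called without the 3 arrays rich in choroid plexus RNA, with a median of -0.48. *Gpr17*, an orphan receptor of the premyelinating stage, was at 8.88 and 8.74 in the disomic mice and 8.38, 9.25 and 8.74 in the Ts1Cje mice at P15 and at 6.53 to 7.74 with a median of 7.39 at P30. No P30 mouse reached the lowest P15 mouse, and *Gpr17* fell by 1.59 ± 0.25 (adjusted p = 0.00393). *Pdgfra*, the growth factor receptor of precursors, fell by 0.93 ± 0.08 (adjusted p = 9.70e-05), and *Lhfpl3*, *Tmem100* and the proteoglycan *Vcan* had log2 changes of -1.20, -0.88 and -0.71. *Olig2* and *Sox10*, transcription factors of the whole lineage, changed by -0.25 and -0.06, with adjusted p of 0.678 and 0.956. The *Cspg4* proteoglycan of precursors had a change of -0.48 that was not called (adjusted p = 0.335).

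Promoter windows of 300 bases, 250 before and 50 after the RefSeq start in GRCm38.p6, were read for the called genes. Of 17 myelin genes that rose and had a window, 3 held the letters ACAATGG on either strand, a motif of the kind that SOX transcription factors bind, which is 17.6%, against 3.24% of 14453 genes. Of the other motifs read in the 17, TTTGAA stood in 17.6% (against 15.7%) and CCAAT in 58.8% (against 42.0%). CACCCCA stood in 5.88% (against 9.63%) and CACGTG in 0% (against 10.2%). The 3 windows are shown as those that hold ACAATGG, with the match in capitals: *Ermn* (chr2:58052815-58053114, minus strand, rise 2.62), *Hapln2* (chr3:88027462-88027761, minus strand, rise 0.99) and *Gjb1* (chrX:101383482-101383781, plus strand, rise 1.25), whose other 3 windows hold no match. A match describes these letters, not a factor bound there.
Ermn: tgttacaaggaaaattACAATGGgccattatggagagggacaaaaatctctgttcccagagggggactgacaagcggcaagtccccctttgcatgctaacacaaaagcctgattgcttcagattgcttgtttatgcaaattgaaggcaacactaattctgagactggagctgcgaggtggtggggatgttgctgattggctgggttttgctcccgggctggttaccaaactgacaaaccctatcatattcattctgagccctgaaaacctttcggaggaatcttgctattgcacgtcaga
Hapln2: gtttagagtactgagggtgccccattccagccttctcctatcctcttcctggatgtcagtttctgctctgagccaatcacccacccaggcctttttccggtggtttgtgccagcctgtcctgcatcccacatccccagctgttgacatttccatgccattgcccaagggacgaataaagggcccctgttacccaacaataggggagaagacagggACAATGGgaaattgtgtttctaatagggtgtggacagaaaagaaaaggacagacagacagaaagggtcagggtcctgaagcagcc
Gjb1: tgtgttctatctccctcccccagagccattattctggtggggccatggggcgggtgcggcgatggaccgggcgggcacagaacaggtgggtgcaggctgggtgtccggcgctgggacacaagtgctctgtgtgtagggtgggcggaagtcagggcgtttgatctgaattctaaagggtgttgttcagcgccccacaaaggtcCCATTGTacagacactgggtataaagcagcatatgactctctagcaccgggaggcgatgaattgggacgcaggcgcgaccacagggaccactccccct

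Neuroblast and immature neuron genes formed the list with the highest share of falls. Of 26 measured genes, 20 fell (76.9%, against 3.04% of all genes) and none rose, the median change was -0.78, and 14 were called without the 3 arrays rich in choroid plexus RNA, with a median of -0.80. The list mean was 9.63 to 9.79 on the 5 P15 arrays and 8.69 to 8.83 on the 6 P30 arrays. *Dcx* was at 9.57 and 9.58 in the disomic mice and 9.22, 9.19 and 9.23 in the Ts1Cje mice at P15 and at 6.59 to 8.04 with a median of 7.52 at P30, and it fell by 1.95 ± 0.22 (adjusted p = 5.26e-04). The lowest P15 mouse was 1.16 above the highest P30 mouse. *Sox4* and *Sox11*, transcription factors of newborn neurons, had changes of -1.27 and -2.01, and the *Sox11* groups overlapped, at 7.36 to 10.11 and 5.72 to 7.95. *Igfbpl1* and *Draxin*, genes of neuroblasts, were dim at both ages and fell to 2.55 ± 0.10 and 2.57 ± 0.10 (SD, n = 6), below the arrays' median.

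Among the 20 were cytoskeletal genes of growing axons. *Gap43*, a growth cone phosphoprotein, was at 10.13 and 10.29 in the disomic mice and 10.37, 10.54 and 10.40 in the Ts1Cje mice at P15 and at 9.14 to 9.55 with a median of 9.20 at P30, a fall of 1.10 ± 0.10 (adjusted p = 1.40e-04). *Marcksl1*, an actin regulator, fell in all 4 of its probe sets, and its change was -1.10. *Stmn2*, which destabilises microtubules, *Tubb3* and *Tubb2b*, neuronal tubulins, and *Tmsb10*, which binds actin monomers, had changes of -0.82, -0.71, -0.72 and -0.75. Other cytoskeletal genes of the list, *Stmn1*, *Basp1*, *Tuba1a* and *Jpt1*, had changes of -0.29, -0.31, -0.37 and -0.32 that were not called. *Neurod1*, a transcription factor of differentiating granule neurons, had one of -0.79 ± 0.14 (adjusted p = 0.00863). *Calb2*, calretinin, which immature granule neurons and some interneurons make, fell by 1.58 ± 0.20 (adjusted p = 0.00108), from values of 8.12 to 8.59 at P15 to values of 6.01 to 7.19 at P30.

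**Figure D2:**
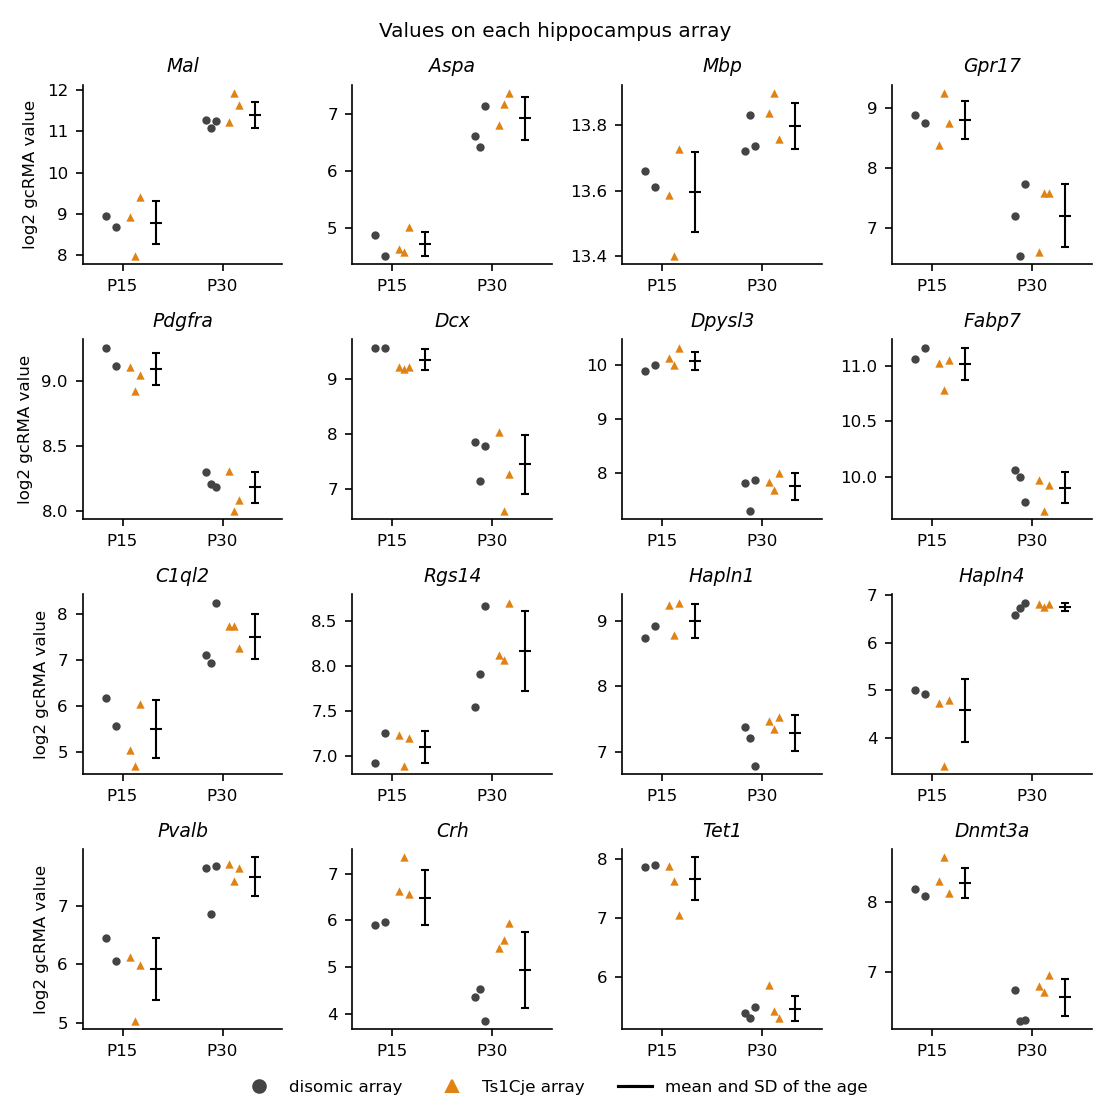
Log2 gcRMA value (y axis) of named genes on each of the 11 hippocampus arrays, P15 and P30 side by side, with disomic mice as circles, Ts1Cje mice as triangles and the mean and SD of each age as bars. *Mal* and *Aspa* lie higher and *Dcx*, *Gpr17* and *Dnmt3a* lower at P30 with no overlap between the ages, whereas the ages overlap for *Mbp* and *Crh*.

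Of 58 cell cycle genes, 5 fell (8.62%, against 3.04% of all genes), 1 rose (1.72%, against 2.61%) and the median was -0.18. Without the 3 arrays rich in choroid plexus RNA none of the 58 was called, with a median of -0.19 and changes of -1.28 for *Rrm2* and -0.64 for *Mki67*. *Rrm2*, a subunit of ribonucleotide reductase, was at 4.53 and 4.42 in the disomic mice and 4.05, 5.11 and 4.11 in the Ts1Cje mice at P15 and at 2.78 to 3.52 with a median of 3.03 at P30, and fell by 1.32 ± 0.20 (adjusted p = 0.00399). The groups did not overlap. *Mki67*, the antigen of cycling nuclei, *Cenpa*, the centromere histone, and *Ube2c*, a ubiquitin conjugase of mitosis, fell to group means of 2.56 ± 0.16, 2.65 ± 0.15 and 2.75 ± 0.17 (SD, n = 6). These means, and that of *Rrm2* (3.12 ± 0.31), lay below the arrays' median, so that the size of the 4 falls is uncertain. *Hmgb2*, a chromatin protein of dividing cells, had a change of -0.88 (adjusted p = 0.0280). The gene that rose was *Anln*, anillin, a protein of the cleavage furrow that is also found in myelin, with 0.92 ± 0.15 (adjusted p = 0.00554).

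All 5 cell cycle genes that fell had a promoter window. The letters CCAAT stood in 5 of the 5 on either strand (100%, against 42.0% of 14453 genes), and TTTGAA, the core of the cell cycle genes homology region, in 4 of the 5 (80.0%, against 15.7%). The windows of *Mki67* (chr7:135716330-135716629, minus strand), *Hmgb2* (chr8:57511593-57511892, plus strand) and *Rrm2* (chr12:24708004-24708303, plus strand) are shown as the one with 2 copies of TTTGAA on one strand, the one with copies on both strands and the one without any, with both motifs in capitals. No match overlaps another in these windows. A match is a description of these letters, not of a factor bound there.
Mki67: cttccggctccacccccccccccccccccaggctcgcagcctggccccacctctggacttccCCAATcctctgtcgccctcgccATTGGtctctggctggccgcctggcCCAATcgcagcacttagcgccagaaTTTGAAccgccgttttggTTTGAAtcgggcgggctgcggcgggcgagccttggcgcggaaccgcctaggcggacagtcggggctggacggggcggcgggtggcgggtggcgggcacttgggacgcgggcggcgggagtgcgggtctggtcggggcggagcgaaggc
Hmgb2: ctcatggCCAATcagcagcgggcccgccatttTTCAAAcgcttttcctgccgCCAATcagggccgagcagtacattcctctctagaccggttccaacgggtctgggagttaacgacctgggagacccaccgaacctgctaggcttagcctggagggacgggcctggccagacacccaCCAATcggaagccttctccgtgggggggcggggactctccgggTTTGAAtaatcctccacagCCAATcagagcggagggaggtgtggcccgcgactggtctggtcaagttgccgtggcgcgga
Rrm2: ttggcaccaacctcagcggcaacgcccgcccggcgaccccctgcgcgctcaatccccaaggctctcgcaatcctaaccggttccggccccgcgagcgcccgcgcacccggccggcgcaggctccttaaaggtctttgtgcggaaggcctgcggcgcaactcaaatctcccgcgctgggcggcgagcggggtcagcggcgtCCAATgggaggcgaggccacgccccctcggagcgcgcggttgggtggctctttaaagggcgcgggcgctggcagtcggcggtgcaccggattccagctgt

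Of 21 genes of radial glia and neural stem cells, 3 fell (14.3%, against 3.04% of all genes) and 1 rose (4.76%, against 2.61%). The median was -0.18, and without the 3 arrays rich in choroid plexus RNA 2 fell. *Fabp7*, a fatty acid binding protein of radial glia and young astrocytes, fell by 1.13 ± 0.09 (adjusted p = 6.24e-05), from values of 10.78 to 11.17 at P15 to values of 9.69 to 10.06 at P30. The matrix protein *Tnc* and the intermediate filament *Vim* had changes of -0.80 and -0.37, and *Id4*, an inhibitor of differentiation factors, rose by 0.51.

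Of 17 genes that mark hippocampal fields, 2 rose (11.8%, against 2.61% of all genes) and none fell, with a median of 0.00. *C1ql2*, a secreted protein of mossy fibre synapses, was at 6.17 and 5.58 in the disomic mice and 5.05, 4.70 and 6.04 in the Ts1Cje mice at P15 and at 6.94 to 8.25 with a median of 7.50 at P30, and it rose by 1.98 ± 0.30 (adjusted p = 0.00332). Every P30 mouse was above every P15 mouse. *Rgs14*, a signalling regulator of field CA2, rose by 1.08 ± 0.19 (adjusted p = 0.00891). *Prox1*, the transcription factor of granule neurons, had a change of -0.19 (adjusted p = 0.838). The granule neuron genes *Dsp* and *Lct* were higher by 0.80 and 1.05, but neither was called, with adjusted p of 0.0908 and 0.0558.

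None of 6 NMDA receptor genes was called, and their changes ran from -0.52 to 0.42. The *Grin2b* subunit was at 9.13 ± 0.44 (SD, n = 5) at P15 and 9.20 ± 0.40 (SD, n = 6) at P30. Of 14 AMPA receptor genes and partners, the subunit *Gria1* rose by 0.49 ± 0.11 (adjusted p = 0.0314), from values of 11.17 to 11.75 at P15 to values of 11.68 to 12.13 at P30, and the auxiliary *Cacng5* had a change of -0.54. *Gria2*, *Gria3* and *Gria4* changed by 0.23, 0.36 and -0.21, none called. The kainate receptor *Grik1* fell by 0.93 ± 0.18 (adjusted p = 0.0152), alone among 13 kainate and metabotropic receptor genes. None of 9 GABA-A receptor genes was called, and the median of that list was 0.18. Of the chloride transporters, the importer *Slc12a2* rose by 0.47 (adjusted p = 0.0437) and the neuronal exporter *Slc12a5*, at 10.88 ± 0.08 and 11.11 ± 0.07, had a change of 0.23 ± 0.07 that was not called, although its groups did not overlap.

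Of 25 voltage-gated potassium and HCN channel genes, 4 rose (16%, against 2.61% of all genes) and none fell, and of 7 sodium channel genes 2 rose (28.6%). *Kcna1*, a channel of the axon next to the node of Ranvier, was at 9.69 to 10.11 at P15 and at 10.23 to 10.61 at P30 and rose by 0.58 ± 0.10 (adjusted p = 0.00852). Its cytoplasmic partners *Kcnab2* and *Kcnab1* rose by 0.72 and 0.54, and *Kcnd3*, a channel of A-type current, by 0.37. The sodium channel subunits *Scn2b* and *Scn4b* rose by 0.50 and 0.81. *Scn4b* was highest, at 4.82, on Ts1Cje P30 replicate 3, the array with the raised cerebellar marker, and without that array it rose by 0.66 (adjusted p = 0.0148). The probe sets of *Scn2b* and *Kcnd3* with the largest spread had changes of -0.017 and -0.097, and without the 3 arrays rich in choroid plexus RNA none of these 6 genes was called, with changes of 0.64 for *Kcna1*, 0.77 for *Kcnab2* and 0.85 for *Scn4b*.

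Of 26 synaptic vesicle genes, 2 rose and 2 fell (7.69% each, against 2.61% and 3.04% of all genes). The 24 postsynaptic and adhesion genes gave 1 rise and 1 fall (4.17% each, near the shares of all genes). Among the vesicle genes, *Vamp1*, a vesicle SNARE, and *Pclo*, a scaffold of the active zone, rose by 1.00 and 0.38, and *Syn3* and *Stx1a* had changes of -0.89 and -0.71. Of 24 postsynaptic and adhesion genes, *Camk4*, a nuclear kinase of calcium signalling, was at 10.43 and 10.61 in the disomic mice and 10.66, 11.13 and 10.75 in the Ts1Cje mice at P15 and at 9.15 to 9.62 with a median of 9.35 at P30. The ages were well apart, and it fell by 1.33 ± 0.10 (adjusted p = 4.37e-05). *Iqsec1*, an exchange factor for ARF proteins, rose by 0.44. The probe sets of *Pclo* and *Iqsec1* with the largest spread had changes of -0.33 and -0.031. Among 13 genes of neurofilaments and the axon initial segment, the motor *Kif5a* rose by 0.59 ± 0.09 (adjusted p = 0.00314), while *Nefl* and *Tubb2a* had changes of -0.43 and -0.31.

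Axon guidance genes fell more often than they rose, 7 against 1 of 45 (15.6% and 2.22%, against 3.04% and 2.61% of all genes). *Draxin*, which fell, is also on the immature neuron list. The median of the 45 was -0.22. Without the 3 arrays rich in choroid plexus RNA 1 of the 45 was called, the median was -0.18 and *Sema3c* and *Slit1* had changes of -1.17 and 1.26. *Sema3c*, a secreted semaphorin, fell by 1.24 ± 0.17 (adjusted p = 0.00203), and the receptors *Plxnd1* and *Plxna3*, the adhesion protein *L1cam* and the secreted *Sema3d* had changes of -0.86, -0.56, -0.70 and -0.51. *Slit1*, a repellent ligand, was at 6.71 and 7.15 in the disomic mice and 7.05, 5.69 and 6.81 in the Ts1Cje mice at P15 and at 7.76 to 8.24 with a median of 7.88 at P30. It rose by 1.21 ± 0.20 (adjusted p = 0.00688).

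Of 28 interneuron genes, 2 rose and 6 fell (7.14% and 21.4%, against 2.61% and 3.04% of all genes). The 6 were *Reln*, *Calb2*, which is also on the immature neuron list, and *Cort*, *Crh*, *Tac1* and *Npy*, which are counted again among the neuropeptide genes below. None rose and 2 fell without the 3 arrays rich in choroid plexus RNA. *Pvalb*, parvalbumin, the calcium buffer of fast-spiking basket cells, was at 6.45 and 6.06 in the disomic mice and 6.12, 5.03 and 5.99 in the Ts1Cje mice at P15 and at 6.87 to 7.73 with a median of 7.66 at P30. Its groups did not overlap, and it rose by 1.57 ± 0.24 (adjusted p = 0.00328), 2.97-fold. *Nos1*, the neuronal nitric oxide synthase, rose by 0.70 (adjusted p = 0.0252). *Reln*, reelin, which Cajal-Retzius cells and interneurons secrete, fell by 1.16 ± 0.17 (adjusted p = 0.00315). The enzymes of GABA synthesis, *Gad1* and *Gad2*, and the peptides *Sst* and *Vip* had changes of 0.19, -0.28, -0.26 and 0.13, none called.

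Of 18 neuropeptide genes, 7 fell (38.9%, against 3.04% of all genes), none rose, and the median was -0.33. *Crh*, corticotropin-releasing hormone, was at 5.90 and 5.98 in the disomic mice and 6.63, 7.35 and 6.56 in the Ts1Cje mice at P15 and at 3.86 to 5.94 with a median of 4.98 at P30. The ranges touched, and it fell by 1.41 ± 0.18 (adjusted p = 0.00134). *Tac1*, the precursor of substance P, fell by 1.08 ± 0.15 (adjusted p = 0.00211), and *Cort*, cortistatin, fell by 1.05 to a P30 mean of 3.28 ± 0.07 (SD, n = 6), near the arrays' median. The precursor *Vgf*, the neuropeptide Y gene *Npy*, *Adcyap1* and *Gal* had changes of -0.73, -0.47, -0.70 and -0.48. *Adcyap1* and *Gal* were dim at both ages. Without the 3 arrays rich in choroid plexus RNA, 2 of the 18 were called and the median was -0.36. Among the 18 immediate early genes, which neuronal activity induces, *Nptx2* and *Nr4a3* had changes of -1.10 and -0.52 and the other 16 were not called. None of 7 neurotrophin genes was called, and *Bdnf* had a change of -0.01.

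The proteins that link hyaluronan to proteoglycans moved in opposite directions. *Hapln1*, the link protein of juvenile matrix, was at 8.73 and 8.92 in the disomic mice and 9.25, 8.78 and 9.28 in the Ts1Cje mice at P15 and at 6.79 to 7.53 with a median of 7.37 at P30, and it fell by 1.67 ± 0.12 (adjusted p = 4.27e-05). *Hapln4*, a link protein of perineuronal nets and of nodes, was at 5.02 and 4.93 in the disomic mice and 4.75, 3.42 and 4.80 in the Ts1Cje mice at P15 and at 6.57 to 6.82 with a median of 6.77 at P30, and it rose by 2.14 ± 0.23 (adjusted p = 4.67e-04). The P30 arrays of *Hapln4* lay within 0.25 of one another and the P15 arrays within 1.6. *Hapln2*, the link protein of nodes, which oligodendrocytes make, rose by 0.99 from a level near the floor. The proteoglycans *Bcan* and *Ncan* had changes of -0.42 (adjusted p = 0.0363) and -1.41 (adjusted p = 0.0584), of which the latter was not called, and *Acan* was dim at both ages. In all, 2 of 21 genes of this matrix rose and 4 fell (9.52% and 19%, against 2.61% and 3.04% of all genes). Among the called ones, *Hapln2*, *Vcan* and *Tnc* are also on the myelin, precursor and radial glia lists. Of these 21 genes, 1 rose and 2 fell without the 3 arrays rich in choroid plexus RNA.

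Collagens and basement membrane genes gave falls only. Of 26, 10 fell (38.5%, against 3.04% of all genes), none rose and the median was -0.52. The list mean was 5.21 to 5.64 on the P15 arrays and 4.69 to 4.95 on the P30 arrays, and 6 of the 26 were called without the 3 arrays rich in choroid plexus RNA, with a median of -0.58. *Nid1*, which joins laminin to collagen, fell by 1.69 ± 0.13 (adjusted p = 4.52e-05) from values of 6.50 to 6.96 at P15 to values of 4.76 to 5.35 at P30. *Fn1*, fibronectin, fell by 1.18 ± 0.12 (adjusted p = 2.98e-04), and *Col9a3*, *Col5a2* and *Lama4* had changes of -1.68, -1.09 and -0.86. Of the 9 meningeal markers none fell, 1 rose and the median was 0.01, with list means of 4.26 to 4.91 at P15 and 4.44 to 5.07 at P30. The gene that rose was *Ptgds*, a prostaglandin synthase of meninges, choroid plexus and oligodendrocytes, which rose by 1.03 ± 0.25 (adjusted p = 0.0465) with overlapping groups. Its change without the 3 arrays rich in choroid plexus RNA was 0.90 (adjusted p = 0.273).

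Of 32 genes of endothelium and pericytes, 11 fell (34.4%, against 3.04% of all genes), 1 rose, and the median was -0.28. *Aplnr*, the apelin receptor of sprouting vessels, was at 4.93 and 4.57 in the disomic mice and 4.99, 6.23 and 5.88 in the Ts1Cje mice at P15 and at 1.79 to 3.41 with a median of 2.40 at P30. It fell by 2.79 ± 0.26 (adjusted p = 1.43e-04) to a level below the arrays' median. *Mfsd2a*, the lipid transporter of the blood-brain barrier, fell by 1.24 ± 0.15 (adjusted p = 8.70e-04). The transcription factors *Sox17* and *Sox18*, the junction protein *Esam* and the co-receptor *Eng* had changes of -0.82, -0.58, -0.88 and -0.56. The gene that rose was *Slco1a4*, an organic anion transporter of barrier endothelium, with 0.66 (adjusted p = 0.0147). Without the 3 arrays rich in choroid plexus RNA, 1 of the 32 was called, although the median of the list was -0.26.

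Astrocyte genes were called at 6.06% and microglia genes at 3.85%, near the 5.64% of all genes called in either direction. Of 33 astrocyte genes, *Itih3* and *Megf10*, an engulfment receptor, rose by 1.21 and 0.51, none fell, and the median was -0.07. *Gfap* and *Aqp4*, the filament and the water channel of astrocytes, had changes of 0.50 (adjusted p = 0.256) and 0.02 (adjusted p = 0.950). Of 26 microglia genes, *Ctss*, a lysosomal protease, rose by 0.40, and none of 13 MHC class I genes was called. Interferon-stimulated genes were dim, but 5 of 23 rose (21.7%, against 2.61% of all genes), none fell, and the median was 0.10. *Ifi27* was at 6.91 and 6.79 in the disomic mice and 6.83, 6.79 and 7.23 in the Ts1Cje mice at P15 and at 7.56 to 8.38 with a median of 8.08 at P30, and it rose by 1.14 ± 0.14 (adjusted p = 0.00113). *Ifitm3*, which blocks viral entry, *Rtp4*, *Lgals3bp* and *Ifit3* rose by 0.79, 0.61, 0.61 and 0.58, and 1 of the 23 was called without the 3 arrays rich in choroid plexus RNA.

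Genes of chromatin and DNA methylation gave 3 falls of 11 (27.3%, against 3.04% of all genes), and 2 without the 3 arrays rich in choroid plexus RNA. *Dnmt3a*, the de novo DNA methyltransferase, was at 8.19 and 8.09 in the disomic mice and 8.30, 8.64 and 8.14 in the Ts1Cje mice at P15 and at 6.30 to 6.96 with a median of 6.73 at P30. The groups were far apart, all 5 of its probe sets fell, and the change was -1.60 ± 0.12 (adjusted p = 3.91e-05), 3.04-fold higher at P15. *Tet1* was at 7.05 to 7.91 at P15 and at 5.32 to 5.88 at P30, and *Ezh2*, the histone methyltransferase of Polycomb, fell by 0.87 ± 0.16 (adjusted p = 0.0112).

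The circadian list was another that moved one way. Of 16 genes, 6 rose (37.5%, against 2.61% of all genes) and none fell, with list means of 6.19 to 6.31 at P15 and 6.49 to 6.68 at P30, and 2 of the 16 rose without the 3 arrays rich in choroid plexus RNA, where the median was 0.36 against 0.32. *Bhlhe40* and *Hlf*, transcription factors of the clock and its output, rose by 0.99 ± 0.12 (adjusted p = 8.75e-04) and 0.96 ± 0.10 (adjusted p = 3.04e-04). *Tef*, *Per3*, *Ciart* and *Nr1d2* rose by 0.57, 0.48, 0.50 and 0.32, and *Dbp*, another output factor, had a change of 0.63 that was not called (adjusted p = 0.101). The probe set of *Nr1d2* with the larger spread had a change of -0.062. The sources used here do not give the hour of collection.

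Metabolic and hormone genes gave smaller groups. Of 20 genes of cholesterol synthesis, 4 fell (20%, against 3.04% of all genes) and none rose. Without the 3 arrays rich in choroid plexus RNA 2 fell. The 4 were *Tm7sf2*, *Sqle*, *Dhcr7* and *Nsdhl*, enzymes of the late pathway, with changes of -0.89, -0.55, -0.55 and -0.37. *Hmgcs1*, which acts at the start, had a change of -0.34 that was not called. Of 68 genes of oxidative phosphorylation 1 was called, the succinate dehydrogenase subunit *Sdha*, which rose by 0.36. Of 8 genes of thyroid hormone action, 3 fell (37.5%, against 3.04% of all genes). They were the activating deiodinase *Dio2*, the transporter *Slco1c1* and the hormone-binding *Crym*, with changes of -0.55, -0.65 and -0.40. Of 11 glucocorticoid response genes, the chaperone partner *Fkbp5* rose by 0.51 and the cell cycle inhibitor *Cdkn1a* fell by 1.03. *Igf1*, insulin-like growth factor 1, fell by 1.11 ± 0.18 (adjusted p = 0.00473) and its binding protein *Igfbp6* rose by 0.90 from a level near the floor. Of 15 imprinted growth genes, *Dlk1* rose by 0.85 at dim levels.

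The change with age was compared between Ts1Cje and disomic mice by an interaction term. By limma no gene met the criteria, and the lowest adjusted p over all probe sets was 0.807, with an unadjusted p under 0.05 for 269 genes (1.48%, below the 5% that this threshold passes where nothing differs). The median SE of this difference was 0.22, against 0.11 for the change with age itself, so that moderate differences between the genotypes were not detectable with 2 or 3 mice per group. By genotype, *Mal* rose by 2.39 in disomic and 2.82 in Ts1Cje mice, *Dcx* had changes of -1.99 and -1.92, and *Dnmt3a* of -1.69 and -1.53. Of 35 genes of the triplicated segment, *Ets2*, *Brwd1* and *Synj1* rose with age, by 0.51, 0.41 and 0.32.

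The same change was measured in the cerebral cortex of the same study, 12 arrays, and the difference between the regions was tested by an interaction of region and age. In the cortex 551 genes rose (3.03%) and 660 fell (3.63%), 6.66% in all. The change differed between the regions for 39 of 18194 genes (0.214%), 15 with a higher (0.0824%) and 24 with a lower change (0.132%) in the hippocampus. With the cerebellar array kept in the P15 group, no gene met the criteria, and without disomic P15 replicate 2 there were 12 with a lower change. *C1ql2* had the largest difference of the genes whose change was higher in the hippocampus, since its cortical change was -0.07 and the difference was 2.06 ± 0.32 (adjusted p = 0.0104). *Klhl4*, a kelch-like protein, rose by 0.95 in the hippocampus and had a change of -0.12 in the cortex, a difference of 1.07 ± 0.19 (adjusted p = 0.0224). *Npy2r*, a receptor of neuropeptide Y, changed by 0.44 and -0.34 (adjusted p of the difference 0.0224).

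Other genes on this side had lower values at P30 in the cortex. *Npnt*, a matrix ligand of integrins, *Myo5b*, a transport myosin, and *Grp*, gastrin-releasing peptide, had cortical changes of -1.85, -1.59 and -1.69 and hippocampal ones of -0.32, -0.37 and -0.57, and the differences were 1.54 ± 0.24, 1.22 ± 0.16 and 1.12 ± 0.17. *Gabra5*, a subunit of extrasynaptic GABA-A receptors in hippocampal pyramidal neurons, had changes of -0.78 in the cortex and -0.17 in the hippocampus, with a difference of 0.61 ± 0.11 (adjusted p = 0.0271). For *Hectd2* and *Pcdh19*, an adhesion protein, the hippocampal changes were 0.04 and 0.10 and the cortical ones -0.87 and -0.58.

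On the other side, *Vgf* and *Rgs4*, a regulator of G protein signalling, fell in the hippocampus and had cortical changes of 0.16 and 0.28, with differences of -0.89 ± 0.13 (adjusted p = 0.00781) and -0.99 ± 0.16 (adjusted p = 0.0109). *Vgf* was at 9.70 and 9.66 in the disomic mice and 9.69, 9.67 and 10.07 in the Ts1Cje mice at P15 and at 8.81 to 9.23 with a median of 9.06 at P30, with no overlap. *Rgs4* was at 9.70 to 10.17 and 9.04 to 9.43. *Fxyd7* and *Camk4* fell more in the hippocampus, with differences of -1.16 and -0.81. *Igfbp6*, *Scn4b* and *Rims3*, a regulator of vesicle release, rose more in the cortex, by 2.49, 2.55 and 2.19 against 0.90, 0.81 and 0.92. *Tnnc1*, a troponin, and *Ddit4l* rose in the cortex by 1.72 and 1.17, while the hippocampal changes of 0.12 and -0.59 were not called. *Rspo1*, a Wnt agonist listed as a cortical marker, and *Gal* were near the floor in the hippocampus, at 1.86 to 2.26 and 3.00 to 3.19 at P30.

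**Figure D3:**
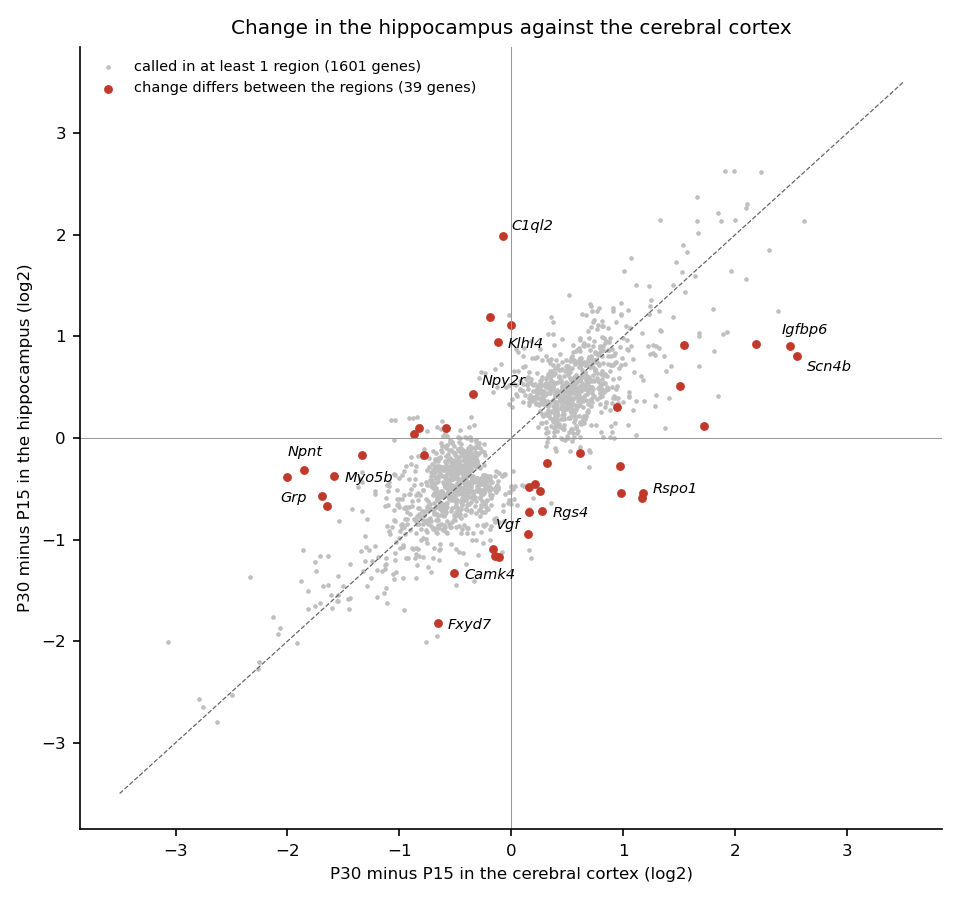
Log2 change from P15 to P30 in the hippocampus (y axis) against that in the cerebral cortex (x axis) for the 39 genes whose change differed between the regions (red) and the 1601 other genes called in at least 1 region (grey), with the line of equal change dashed. *C1ql2* lies at 1.98 in the hippocampus and -0.07 in the cortex.

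The change from P15 to P30 was placed in the time course by the change before it (P15 minus P1) and after it (P84 minus P30), fitted over 23 hippocampus arrays. These share the P15 and P30 arrays with the main comparison and are not independent of it, so that they are given side by side as a description. From P1 to P15, 2749 genes rose (15.1%) and 2778 fell (15.3%), 30.4% in all, and from P30 to P84, 12 rose (0.066%) and 83 fell (0.456%), 0.522% in all, with 43 to 53 falls without any 1 of 7 of the 12 arrays. Of the 474 genes that rose from P15 to P30, 296 had risen and 29 had fallen in the step before, and 6 rose and 8 fell in the step after. Of the 553 that fell, 231 had fallen and 125 had risen before, and 40 fell and none rose after.

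Genes of the myelin list, which includes *Trh*, rose in the step before as well, with 22 of 30 called. After P30, 7 of the 30 fell and 1 rose, or 6 and 1 without disomic P84 replicate 3. *Mbp* rose by 8.33 from P1 to P15. *Mog*, *Mag*, *Ugt8a* and *Adamts4*, a protease of the lineage, had changes of -1.37, -1.14, -1.22 and -1.11 from P30 to P84, all called. The gene that rose was *Il33*, an alarmin held in the nuclei of oligodendrocytes and astrocytes, by 1.26 from P15 to P30 and 1.98 ± 0.17 from P30 to P84 (adjusted p = 2.06e-05). Of the precursor genes, 15 of 20 rose and 1 fell up to P15. *Gpr17* rose by 5.51 from P1 to P15, then fell by 1.59, and had a change of -1.81 after P30, and *9630013A20Rik* had changes of 5.05, -1.93 and -2.11.

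Immature neuron genes fell in both steps up to P30, 21 of 26 before P15 and 20 after, and 5 of them fell after P30, or 2 without disomic P84 replicate 3. *Dpysl3* had changes of -2.32, -2.28 and -1.07 in the 3 steps, and *Dcx* of -3.11, -1.95 and -0.94, of which the last was not called. Cell cycle genes had fallen before P15, with 43 of 58 called. *Hapln1* and *Fxyd7* rose to P15, by 5.28 and 4.84, before their falls, and so did *Dnmt3a*, by 1.42, whereas *Tet1* had a change of -0.29 before P15 that was not called and one of -1.11 after P30 that was. After P30, 7 of 20 genes of cholesterol synthesis fell. *Sqle* (-0.95) and *Dhcr7* (-0.89) were among them and had also fallen from P15 to P30, whereas *Cyp51* (-0.83) had a change of -0.22 in that step that was not called. *Pvalb*, *Kcna1* and *Kcnab2* rose by 3.38, 4.16 and 4.84 before P15 and had changes of -0.13, -0.10 and 0.10 after P30, none called. *Slit1* rose by 1.73 before P15 and had a change of 0.01 after P30.

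**Figure D4:**
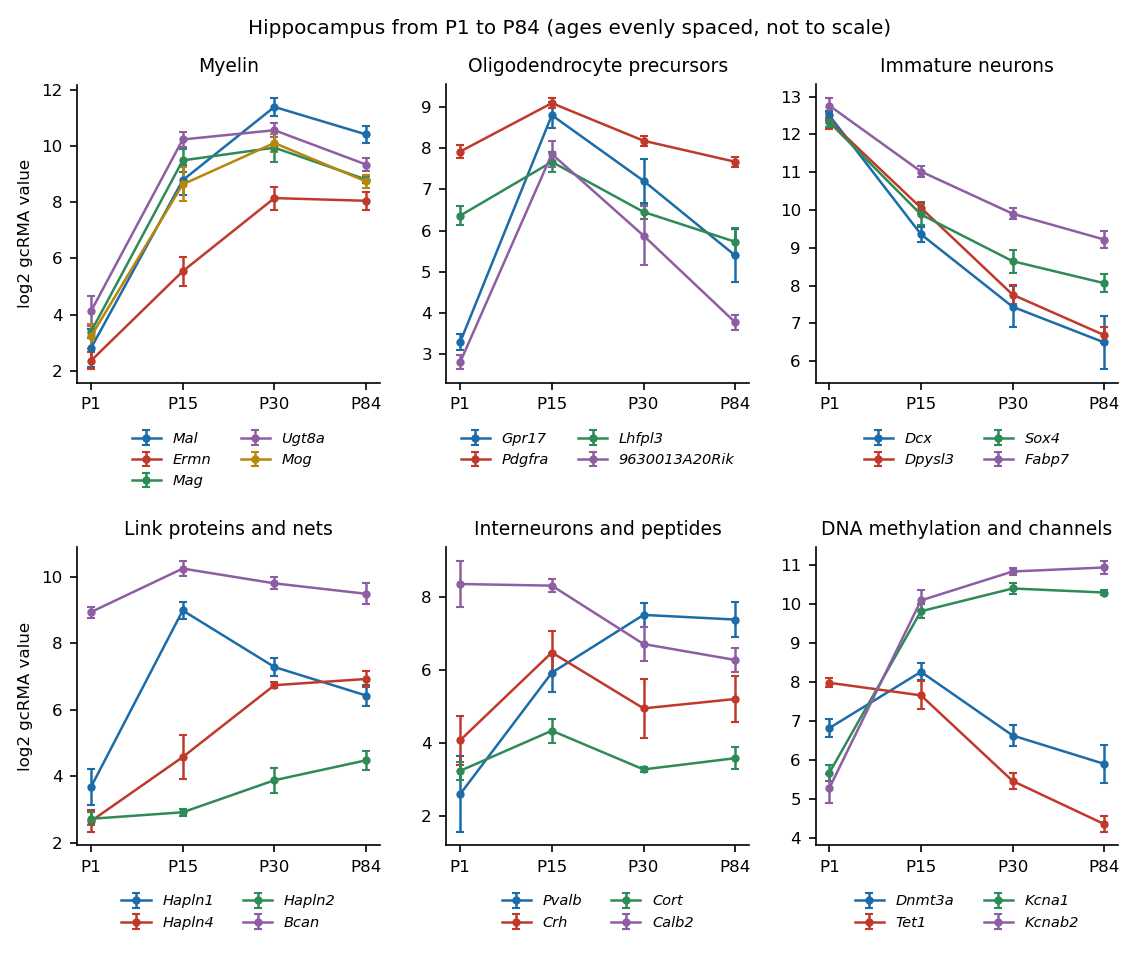
Mean log2 gcRMA value (y axis) of named genes in the hippocampus at P1, P15, P30 and P84 (x axis, evenly spaced), with error bars of 1 SD over 6 mice, 5 at P15. *Hapln1* and *Gpr17* peak at P15, *Mal* and *Mog* at P30, and *Dcx* and *Dpysl3* fall from P1 on.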

How the data were processed

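Total RNA was extracted with a column kit and a DNase step, labelled and hybridised to Affymetrix Mouse Genome arrays. The authors deposited log2 values from gcRMA, a method that models the background of a probe from its bases, normalises between arrays and gives 1 value per probe set. GCRMA stands in the processing notes of the submitters with no version. Per the labels, log2 values were deposited as 1 table of 45101 probe sets, with no filter and no pooling, which was used as deposited. Arrays give no count of molecules, and 5 and 6 mice limit the precision. Values near the floor understate differences.

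Groups came from the labels. Of the probe sets, 34958 had 1 gene symbol, 932 several (none named from these) and 9211 none, and 34754 were matched to RefSeq symbols of GRCm38.p6. Each of 18194 genes was read from its brightest probe set by the average of the 11 arrays.

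P30 minus P15 was estimated for all probe sets by lmFit and eBayes of limma 3.58.1 (R 4.3.3) with genotype as a term. Interactions with genotype and with region, and P15 minus P1 and P84 minus P30 over 23 hippocampus arrays, were fitted in the same way, and the fit was tested on simulated data. Thresholds were those of the methods. The 44 gene lists and the array left out were chosen with earlier results of these data known. The naming rule took the 12 largest called changes in each direction with a group mean of at least 7 and no overlap, up to 6 called members of each list per direction and up to 8 region differences per direction. Whole receptor, enzyme and marker families, and genes at both ends of the time course, were named beside them, some after their values were seen. Promoter windows were RefSeq sequence, 14453 genes with 18110 windows in all. Alternatives were the left-out array kept, other filters, priors, quantile normalisation, blocks and spreads, each genotype alone and each array left out in turn. Leaving out the 3 arrays rich in choroid plexus RNA was chosen after seeing the data. Some genes are not reported here. Plots were drawn with matplotlib 3.10.9.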

Additional observations from a re-analysis of the deposited data

Results flagged for a closer look

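Within each age group of the 189 named genes, 378 groups in all, the highest or the lowest array stood apart from the others by Dixon's criterion in 17, where chance alone gives about 1 in 20. At P15 these were *Vgf* at 10.07 and *Ifi27* at 7.23 on Ts1Cje replicate 3, *Sox10* at 7.10 on the same array, *Hapln4* at 3.42 on Ts1Cje replicate 2, *Cort* at 4.92 and *Dsp* at 6.93 on Ts1Cje replicate 1, and *Tnc* at 4.89 and *Ctss* at 9.12 on disomic replicate 2. At P30 they were *Ptgds* at 10.04 and *Ube2c* at 2.42 on disomic replicate 1, *Pvalb* at 6.87 and *Gap43* at 9.55 on disomic replicate 2, *Tet1* at 5.88 and *Kif5a* at 11.84 on Ts1Cje replicate 1, *Kcnab2* at 10.67 and *Tmem100* at 5.77 on Ts1Cje replicate 2, and *Scn4b* at 4.82 on Ts1Cje replicate 3. For *Hapln4*, the other 4 P15 arrays lay between 4.75 and 5.02, so that the rise over them alone would be smaller.

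The change from P15 to P30 differed between hippocampus and cerebral cortex, by the interaction term of limma, for 20 named genes. It was higher in the hippocampus for *C1ql2* (2.06, adjusted p = 0.0104), *Npnt* (1.54, adjusted p = 0.0109), *Myo5b* (1.22, adjusted p = 0.00368), *Grp* (1.12, adjusted p = 0.00781), *Klhl4* (1.07, adjusted p = 0.0224), *Hectd2* (0.91, adjusted p = 0.0271), *Npy2r* (0.78, adjusted p = 0.0224), *Pcdh19* (0.68, adjusted p = 0.0152) and *Gabra5* (0.61, adjusted p = 0.0271). It was lower for *Ddit4l* (-1.75, adjusted p = 0.0307), *Scn4b* (-1.74, adjusted p = 0.0212), *Rspo1* (-1.71, adjusted p = 0.000777), *Tnnc1* (-1.60, adjusted p = 0.021), *Igfbp6* (-1.59, adjusted p = 0.000777), *Rims3* (-1.27, adjusted p = 0.0271), *Fxyd7* (-1.16, adjusted p = 0.0224), *Rgs4* (-0.99, adjusted p = 0.0109), *Vgf* (-0.89, adjusted p = 0.00781), *Camk4* (-0.81, adjusted p = 0.0301) and *Gal* (-0.64, adjusted p = 0.0117).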

How the results depend on the processing

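Of 150 named genes called for the change with age, 16 were called under every one of 28 alternatives. The 474 rises and 553 falls became 254 and 239 with disomic P15 replicate 3 kept, 223 and 280 with the spread taken from all regions and ages, 38 and 73 in disomic mice alone, 19 and 32 in Ts1Cje mice alone, 80 and 136 without the 3 arrays rich in choroid plexus RNA and 75 and 110 at a change of at least 2-fold, and the falls were 326 after a filter at a mean of 5. With 1 mouse left out in turn there were 293 to 504 rises and 375 to 583 falls, and the rises were 293 without disomic P15 replicate 1, 297 without Ts1Cje P30 replicate 3, 308 without disomic P15 replicate 2 and 314 without Ts1Cje P30 replicate 2. With disomic P15 replicate 3 kept, *Grp* (0.51), *Rgs4* (0.42), *Npy* (0.32), *Nr4a3* (0.42) and *Crym* (1.08) turned to higher values at P30, and so did the region difference of *Rgs4* (0.15), and with the probe set of largest spread *Scn2b* (-0.017), *Kcnd3* (-0.097), *Pclo* (-0.33), *Iqsec1* (-0.031) and *Nr1d2* (-0.062) turned to lower ones. The cause was not tested. The region difference, 15 higher and 24 lower genes, gave 26 and 40 with arrays of the same age, genotype and replicate number as a random block. It gave 31 and 45 with the replicate number as a block, 0 and 0 with the left-out array kept and 9 and 15 after the filter. With 1 array left out there were 12 to 18 and 12 to 30, the 12 lower genes without disomic P15 hippocampus replicate 2. Deviations of same-numbered arrays of different ages had a median correlation of 0.33, with 9 of 10 over 0.1 and the lowest at 0.023, against -0.19 for different numbers, and 6 of 11 arrays correlated best with their own number. Same-numbered arrays of the same age had a median of 0.36, with 4 of 5 over 0.1 and the lowest at -0.095, against -0.21 for different numbers. These were deviations from the group means, which cancel out within a group, and the disomic P15 arrays used mirror each other exactly. The values for different numbers are thus not independent of those for the same number. Not every same-numbered pair was over 0.1 and nothing in the labels ties the numbers, so they were not taken to pair mice. What else arrays of the same number may share was not tested. With same-numbered arrays of an age as a random block there were 319 rises and 393 falls. The replicate block gave 586 rises and 752 falls, and 1 probe set for the genotype difference. From P1 to P15, leaving out a mouse gave 2362 to 2706 rises and 2287 to 2752 falls, and the filter 1763 falls. From P30 to P84, falls were 40 with the left-out array kept and 50 without disomic P84 replicate 3, rises were 2 after the filter, and leaving out a mouse gave 7 to 12 (7 without Ts1Cje P84 replicate 2 or disomic P30 replicate 1) and 43 to 111. These falls were 43 to 53 without Ts1Cje P30 replicate 2 or 3, disomic P30 replicate 1 or 3, Ts1Cje P84 replicate 2 or 3, or disomic P84 replicate 3. The genotype difference gave 0 with each mouse left out.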
